A study of Mus musculus with 6 samples.

Results

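The IFIT genes, interferon-induced genes with tetratricopeptide repeats, were followed in purified cerebellar microglia of mice that lack Fmr1, the gene silenced in fragile X syndrome. The members were taken by gene symbol from the deposited count table, and all 6 (Ifit1, Ifit2, Ifit3, Ifit3b, Ifit1bl1 and Ifit1bl2) had a row among 23491 symbols. Both groups carried the Fmr1 knockout, and no group with an intact gene was analysed here. One group was labelled saline in its treatment label and sham in its titles (3 libraries, called saline here), and the other had received poly(I:C) by intraperitoneal injection (3 libraries). Poly(I:C) is a synthetic double-stranded RNA that mimics viral RNA. Age, dose and the interval between injection and collection were not stated in the labels. Cells were enriched on beads against CD11b, a surface protein that other myeloid cells also carry. Whether 1 animal or several stood behind the 3 libraries of a group is not labelled, and the p-values therefore rest on library-to-library spread, which may be technical.

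IFIT proteins are made in small amounts in resting cells and in large amounts after type I interferon or direct sensing of viral RNA. Ifit1 binds RNA whose cap lacks the methyl mark of host messages and keeps it from being translated, and Ifit2 is known for protecting the brain against neurotropic viruses. Interferon acts on these genes through a transcription factor complex that includes Stat2 and Irf9 and binds a promoter element called ISRE with a pair of GAAA blocks.

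The 6 members lie next to one another on mouse chromosome 19. The sequences upstream of their starts are shown first because they show which members share matches to a promoter motif. RefSeq windows of 250 bases before to 50 bases after each start (build GRCm38.p6) were found for all 6 members, 9 windows in all, since Ifit2, Ifit1bl1 and Ifit1bl2 each had 2 starts. They were searched on both strands for the ISRE-type motif GAAA, any 2 bases, GAAA, which reads TTTC, any 2 bases, TTTC on the other strand. Matches could overlap, and each is a description of the letters, not a measured binding site. The authors' counts are on build GRCm39, and no position was carried between builds. Capitals mark the matches in the following stretches, all printed 5′ to 3′ on the strand of the gene. The first is upstream of Ifit3 (chr19:34583349-34583448, plus strand) and the next upstream of Ifit3b (chr19:34607745-34607844, plus strand). The third lies upstream of Ifit1 (chr19:34640749-34640829, plus strand), and the fourth is the same interval read on the minus strand, upstream of Ifit1bl2. The last is upstream of the second start of Ifit1bl1 (chr19:34602028-34602108, minus strand).
Ifit3: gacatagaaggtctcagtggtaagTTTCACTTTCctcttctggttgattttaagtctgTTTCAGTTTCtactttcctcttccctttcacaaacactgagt
Ifit3b: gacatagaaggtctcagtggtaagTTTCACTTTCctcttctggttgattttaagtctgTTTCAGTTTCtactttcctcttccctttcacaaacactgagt
Ifit1: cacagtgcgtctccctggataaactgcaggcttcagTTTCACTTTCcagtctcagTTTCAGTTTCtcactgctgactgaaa
Ifit1bl2: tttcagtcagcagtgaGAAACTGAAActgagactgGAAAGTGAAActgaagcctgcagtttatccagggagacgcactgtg
Ifit1bl1: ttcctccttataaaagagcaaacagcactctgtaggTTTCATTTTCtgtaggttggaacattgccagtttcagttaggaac

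The printed stretches of Ifit3 and Ifit3b were identical at 100 of 100 bases, with a match from 156 to 147 and from 122 to 113 bases before the Ifit3 start. Over the 250 upstream bases of both genes, the best local alignment held 217 identical bases of 224 (96.9%). Ifit1 and Ifit1bl2 are transcribed away from each other, and their windows held the same pair of matches, at 34640785 to 34640794 and 34640804 to 34640813. These lie 104 to 95 and 85 to 76 bases before the Ifit1 start, and 51 to 42 and 70 to 61 bases before the second start of Ifit1bl2. Each Ifit1bl1 window held 1 match, while both Ifit2 windows and the other Ifit1bl2 window held none. These held none with 1 to 3 bases between the blocks either, and sequence outside the windows was not searched. Of all 32851 promoter windows in the table, 1131 (3.44%) held at least 1 match and 74 (0.225%) held 2 or more.

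**Figure D1:**
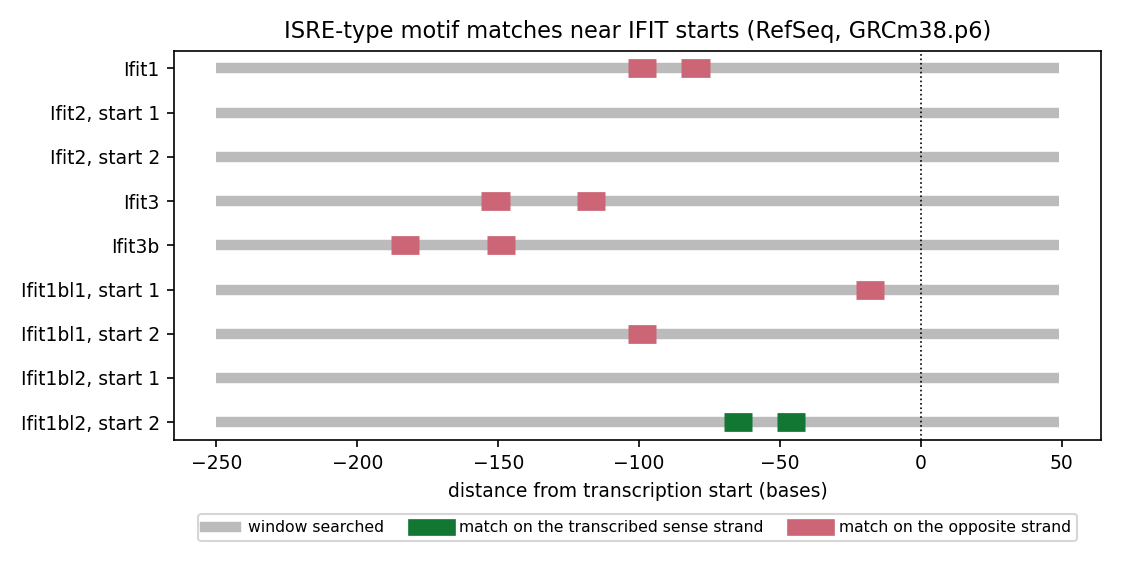
Position of matches to the ISRE-type motif (coloured blocks) in the 9 RefSeq windows of the IFIT genes, in bases from the transcription start (0, dotted line); grey bars are the windows searched. Ifit3 and Ifit3b share the spacing of their 2 matches, and the 2 matches of Ifit1 and of the second Ifit1bl2 start are the same bases read on opposite strands.

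Library totals were between 33710545 and 34899835 counts. Levels are given as CPM, counts scaled to one common library size after edgeR's TMM correction for composition. Saline replicate 1 stood apart, with a summed neutrophil marker level of 22210 CPM over 11 genes, while saline replicates 2 and 3 had 3786 and 3791 CPM and the poly(I:C) group had 1814 to 3300 CPM. In edgeR none of the 11 was called, and 10 were lower at an unadjusted p under 0.05 (10.8% of all tested genes were). DESeq2 called 1 and limma-voom 8 of the 11 lower (3.03% and 10.9% of all their genes were). Poly(I:C) replicate 1 had a summed choroid plexus marker level of 19249 CPM over 8 genes, against 3941 to 9264 CPM in the other 5 libraries. None of these 8 was called in edgeR, but 7 were higher at an unadjusted p under 0.05 (10.5% of all tested genes were). The median log2 difference of the 8 was 1.29. DESeq2 called 1 and limma-voom 2 of the 8 higher (3.76% and 8.61% of all their genes were). The summed level of 6 monocyte markers was 2019 CPM in saline replicate 1 and 152 to 378 CPM elsewhere. The part of these cells in the IFIT differences was not tested. Of the 10 microglial markers fixed for the check, 9 had a row, and their sum was between 28131 and 41560 CPM in each library. Fmr1, disrupted in both groups, still had reads at 39.0 ± 1.41 and 53.7 ± 9.42 CPM (log2 difference 0.46, adjusted p = 0.167), and counts per gene do not show whether they cover the disrupted part. In bulk RNA, fewer cells of a type and less RNA per cell cannot be told apart.

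With poly(I:C), 4 of the 6 IFIT genes rose and 0 fell in edgeR's quasi-likelihood test, at a Benjamini-Hochberg adjusted p under 0.05 over 14727 tested genes. Of all tested genes, 0.957% were called, 0.883% higher and 0.0747% lower. At an unadjusted p under 0.05, 5 members were higher and 0 lower, where 21.3% of all tested genes passed (10.5% higher, 10.8% lower). DESeq2 and limma-voom each called 5 higher and 0 lower, where DESeq2 called 6.79% of its genes (3.76% higher, 3.03% lower) and limma-voom 19.5% (8.61% higher, 10.9% lower). Ifit1, Ifit2, Ifit3 and Ifit3b were between 13.7-fold and 20.6-fold higher, Ifit1bl1 had a similar difference on few counts, and Ifit1bl2 had a 1.76-fold difference. The CPM values of 5 members were higher in every poly(I:C) library than in every saline library, as were those of 14.0% of all tested genes, with 28.4% not overlapping in either direction (14.3% lower). Each count of 5 includes Ifit1bl1, which passed the filter on low counts through the poly(I:C) libraries and so adds little support. The summed level of the family averaged 344 ± 134 CPM with poly(I:C) against 23.2 ± 10.6 CPM with saline (SD, n = 3 each).

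**Figure D2:**
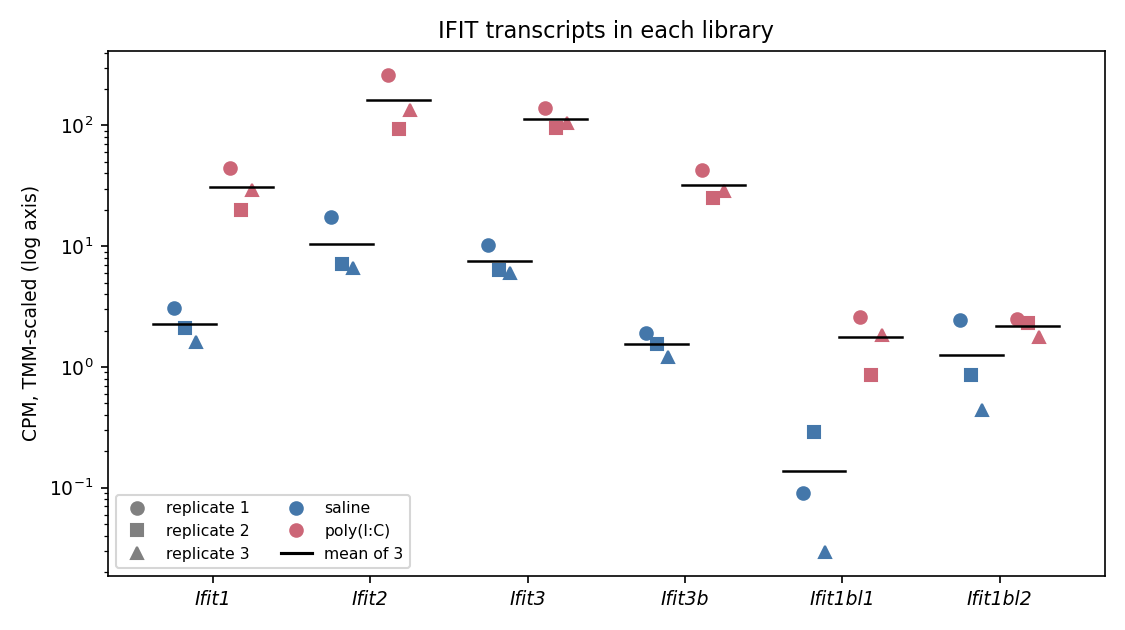
CPM (log axis) of each IFIT gene in 3 saline and 3 poly(I:C) libraries; symbols mark the replicate number and bars the mean of 3. For 5 genes the groups do not overlap, while Ifit1bl2 in saline replicate 1 (2.43 CPM) lies within the poly(I:C) range of 1.78 to 2.50 CPM.

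Ifit1, the sensor of incompletely methylated caps, stood at 3.07, 2.11 and 1.62 CPM in saline replicates 1 to 3 and at 44.2, 19.9 and 29.2 CPM in poly(I:C) replicates 1 to 3. All poly(I:C) libraries were above all saline libraries, and replicate 1 was the highest of each group. The means of 2.27 ± 0.74 and 31.1 ± 12.3 CPM (SD, n = 3 each) differed by 3.78 on the log2 scale (SE 0.38, adjusted p = 0.00669). The lowest poly(I:C) library was therefore well above the highest saline library, although the poly(I:C) libraries differed 2.22-fold among themselves. Raw counts were 101, 73 and 55 with saline and 1557, 673 and 1015 with poly(I:C).

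Ifit2 had the most reads of the family in 5 of 6 libraries, with fewer than Ifit3 in poly(I:C) replicate 2, and the widest spread of the 4 called members. Its values were 17.5, 7.19 and 6.63 CPM with saline and 263, 92.7 and 135 CPM with poly(I:C). Replicate 1 was again the highest of each group, by 2.65-fold over the lowest saline library and by 2.84-fold over the lowest poly(I:C) library. The log2 fold change was 3.97 (SE 0.55, adjusted p = 0.0271), a 15.7-fold difference between means of 10.5 ± 6.15 and 164 ± 88.9 CPM. The call was lost without saline replicate 2 (adjusted p = 0.117), saline replicate 3 (0.150) or poly(I:C) replicate 3 (0.107), with log2 fold changes of 3.76, 3.72 and 4.09. Without both replicates 1, the libraries with the high neutrophil and choroid plexus sums, in a fit added after seeing the data, the log2 fold change was 4.06 (SE 0.20, adjusted p = 7.27e-05).

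Ifit3 was at 10.2, 6.35 and 5.95 CPM with saline and at 138, 95.9 and 106 CPM with poly(I:C). The groups were far apart and the poly(I:C) libraries lay within 1.44-fold of each other, the narrowest such range of the 4 called members. The log2 fold change was 3.92 (SE 0.26, adjusted p = 0.00108). Ifit3b, the near copy of Ifit3, had 1.92, 1.56 and 1.21 CPM with saline and 42.7, 25.1 and 28.9 CPM with poly(I:C). It had the largest log2 fold change of the family, 4.37 (SE 0.29, adjusted p = 0.00108), and ranked 6th among all tested genes by size of increase. Ifit3 and Ifit3b were called under every alternative run, with a highest adjusted p of 0.0131. Ifit1 was also called in each, but close to the limit in 3 fits. Its adjusted p was 0.041 without saline replicate 2, 0.047 without saline replicate 3 and 0.045 without poly(I:C) replicate 3.

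The counts of Ifit3 and Ifit3b are not fully separable. In the GENCODE M21 transcripts (GRCm38), 51.2% of the 50-base stretches of the longest Ifit3 transcript also occurred in Ifit3b, and 31.7% of 100-base and 18.5% of 150-base stretches. The labels give neither the read length nor the rule for reads that fit both genes. Of the 50-base stretches of Ifit1, 7.13% were shared with another member, and of those of Ifit2 none were. In every library Ifit3b had fewer counts than Ifit3, at 18.8%, 24.5% and 20.3% of the Ifit3 count with saline and 30.9%, 26.1% and 27.4% with poly(I:C). These percentages did not overlap between the groups. The mean log2 ratio of Ifit3b to Ifit3 was −2.24 ± 0.20 with saline and −1.83 ± 0.12 with poly(I:C), a difference of 0.40 (exact two-sided permutation p = 0.10, the smallest that 3 against 3 libraries allow, adjusted p = 0.25 over 5 ratios to Ifit3). The ratios of Ifit1 and Ifit2 to Ifit3 differed by −0.20 and 0.041 between the groups on the log2 scale, with overlapping libraries (exact permutation p = 0.50 and 1, adjusted p = 0.833 and 1).

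Ifit1bl1 had few reads, with 3, 10 and 1 counts with saline and 91, 29 and 64 counts with poly(I:C). Each poly(I:C) library was above each saline library, but the saline libraries differed 9.79-fold among themselves, and the gene passed the filter on low counts through the poly(I:C) libraries. Over each group's summed counts, 14 and 184, the ratio was 12.8 with an exact 95% interval of 7.46 to 24.0, which covers counting error only. The log2 fold change of 3.65 (SE 0.81) was not called in edgeR (adjusted p = 0.118) and was called in DESeq2 (adjusted p = 5.64e-04) and limma-voom (adjusted p = 0.0162). Without saline replicate 2 the log2 fold change was 4.79 (adjusted p = 0.134). Its log2 ratio to Ifit3 differed by −0.097 between the groups (exact permutation p = 0.90, adjusted p = 1). On so few counts that difference was −0.62 with a pseudocount of 2 in place of 0.5, and it became positive when saline replicate 2 (0.72) or replicate 2 of poly(I:C) (0.24) was left out.

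Ifit1bl2, whose second start shares its upstream interval with Ifit1, did not pass the test. It had 80, 30 and 15 counts with saline and 88, 78 and 62 with poly(I:C), or 2.43, 0.87 and 0.44 CPM and 2.50, 2.31 and 1.78 CPM. Saline replicate 1 lay inside the poly(I:C) range, and the other saline libraries lay below it. The log2 difference was 0.82 (SE 0.61, adjusted p = 0.446), and 1.73 (SE 0.46, adjusted p = 0.172) without saline replicate 1, the library with the high neutrophil marker sum. Whether neutrophil RNA contributed to its level was not tested. Counts per gene do not show which start of Ifit1bl2 was used, and the window of its first start held no match. Relative to Ifit1, Ifit1bl2 had 79.2%, 41.1% and 27.3% of the Ifit1 count with saline and 5.65%, 11.6% and 6.11% with poly(I:C), a comparison chosen after the values were seen. Its log2 ratio to Ifit3 was −2.88 ± 0.82 with saline and −5.68 ± 0.27 with poly(I:C). That difference of −2.80 was the largest of the 5 ratios, with no overlap between groups (exact permutation p = 0.10, the smallest possible, adjusted p = 0.25).

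Levels can be compared between members only per length, so CPM was divided by the kilobases of exon in GENCODE M21. Per kilobase, Ifit3 was the most abundant member in all 6 libraries, at 4.30 ± 1.35 CPM per kb with saline and 64.9 ± 12.8 with poly(I:C). Ifit2 followed at 2.66 ± 1.57 and 41.7 ± 22.6 CPM per kb, and its range overlapped that of Ifit3 within each group. Ifit1 and Ifit3b came next with overlapping ranges, at 0.85 ± 0.28 and 0.78 ± 0.18 CPM per kb with saline and 11.7 ± 4.63 and 16.1 ± 4.65 with poly(I:C). In each saline library Ifit1 was slightly above Ifit3b per kilobase, and in each poly(I:C) library it was below. The saline gaps were narrow, at 0.793 against 0.779 in replicate 2 and 0.610 against 0.604 in replicate 3, on 54 and 41 Ifit3b counts. Of the 50-base stretches of Ifit3b, 44.5% also occurred in Ifit3, and how such reads were counted is not stated. The order of Ifit1 and Ifit3b is therefore uncertain. The 2 Ifit1-like genes were the lowest, and with poly(I:C) their ranges of 0.379 to 1.14 (Ifit1bl1) and 0.529 to 0.743 CPM per kb (Ifit1bl2) overlapped.

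Ifit3 and Ifit2 made up most of the family's per-kilobase sum in both groups. Ifit3 held 48.7 ± 4.24% of the per-kilobase sum with saline and 49.2 ± 6.30% with poly(I:C), and Ifit2 held 28.2 ± 4.94% and 29.3 ± 6.22%. Ifit3b held 7.26, 10.5 and 9.35% with saline and 11.5, 12.6 and 11.9% with poly(I:C). Ifit1bl2 went from 3.66 ± 1.73% to 0.51 ± 0.16%, with saline values of 5.47, 3.46 and 2.03% all above the highest poly(I:C) value of 0.687%. These shares are a description and were given no test.

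**Figure D3:**
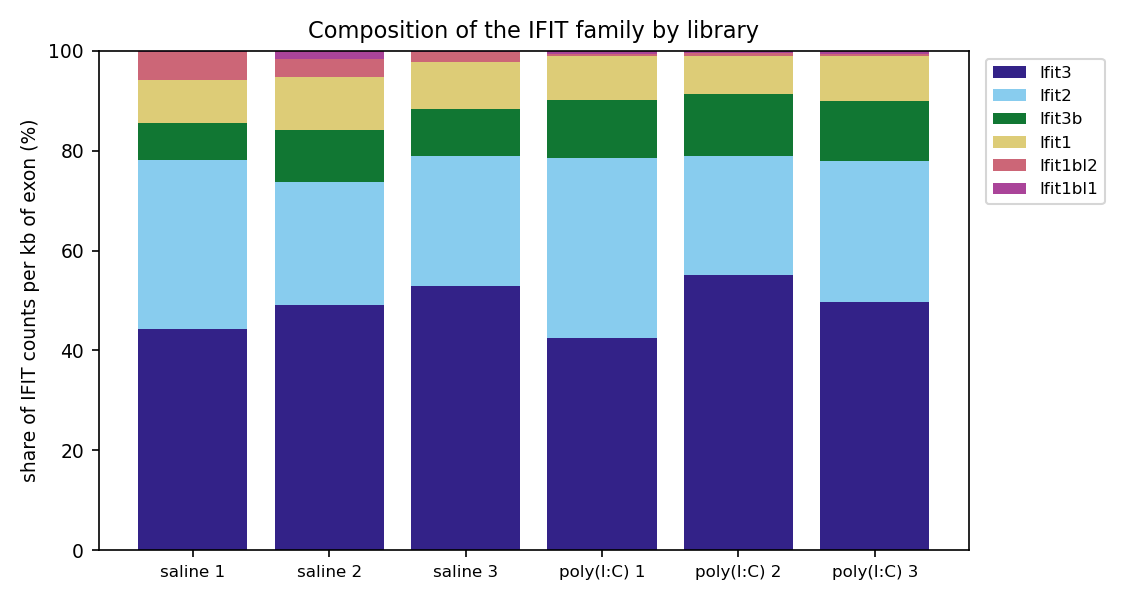
Share of each IFIT gene in the family's counts per kilobase of exon (%), 1 stacked bar per library. Ifit3 and Ifit2 make up most of every bar, and the Ifit1bl2 segment is thinner in the poly(I:C) bars (0.399 to 0.687%) than in the saline bars (2.03 to 5.47%).

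**Figure D4:**
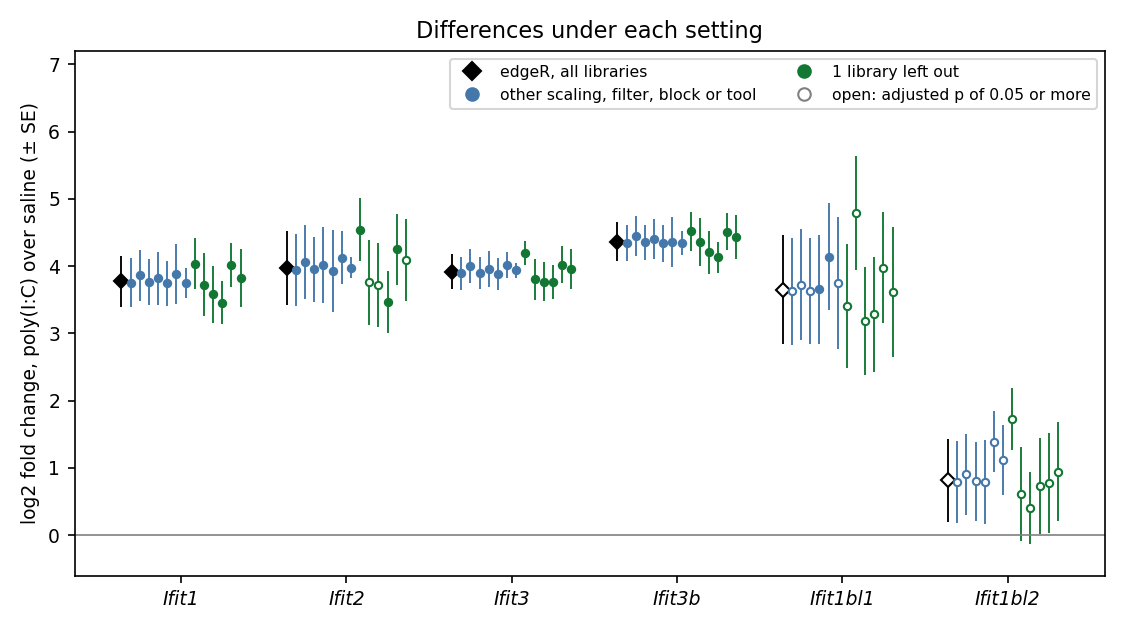
Log2 fold change (poly(I:C) over saline, ± SE) of each IFIT gene in the edgeR fit of all libraries (diamond), under other scalings, filters, tools or a replicate block (blue), and with 1 library left out (green); open symbols have an adjusted p of 0.05 or more. Ifit1, Ifit3 and Ifit3b are filled throughout, Ifit2 is open in 3 fits with 1 library left out, and Ifit1bl2 lies between 0.41 and 1.73 and is open throughout.

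Genes for interferon sensing and signalling moved in part, and their order relative to the IFIT genes was not tested. Of the 23 tested genes of this list, 10 rose and 0 fell, where 0.883% of all tested genes rose and 0.0747% fell. DESeq2 called 11 and 0 (3.76% and 3.03% of all its genes), and limma-voom 12 and 1 (8.61% and 10.9%). The median log2 fold change of the list was 0.42, against a median of 0.0098 over all tested genes. Irf7, a transcription factor that amplifies interferon production, rose from 21.2 ± 6.51 to 331 ± 64.0 CPM (log2 fold change 3.97, SE 0.26, adjusted p = 0.00108). Stat2 and Irf9, which take part in binding the ISRE, rose 3.32-fold and 2.22-fold. The double-stranded RNA sensors also rose, Ifih1 3.92-fold, Rigi 3.27-fold and Tlr3 2.00-fold, and so did Dhx58, a regulator of those sensors, 5.78-fold. Isg15, a ubiquitin-like protein, rose 10.6-fold, and Usp18, the protease that removes it and dampens receptor signalling, rose 11.3-fold. The adjusted p of the 10 called genes was between 6.98e-04 and 0.00995. Leaving out poly(I:C) replicate 3 ended the call of Tlr3, Ifih1, Usp18 and Isg15 (adjusted p = 0.0582, 0.0611, 0.0537 and 0.0501). Leaving out saline replicate 2 ended that of Tlr3 and Ifih1 (0.0531 and 0.0541), and leaving out saline replicate 3 that of Ifih1 and Usp18 (0.0781 and 0.0524).

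The receptor and its kinases had small differences. Ifnar2, a subunit of the type I interferon receptor, was at 243 ± 40.7 CPM with saline and 249 ± 10.9 CPM with poly(I:C), and the receptor kinases Jak1 and Tyk2 had log2 differences of −0.20 and 0.023 (adjusted p = 0.895, 0.232 and 0.911). Socs3, a feedback inhibitor of cytokine receptors, had a log2 difference of −0.14 (adjusted p = 0.539). Ifnb1, the gene for interferon beta and chosen after its values were seen, was at 0.57 ± 0.18 and 0.70 ± 0.30 CPM (log2 difference 0.29, SE 0.50, adjusted p = 0.747), so that a difference was not detectable at this depth. The signs for Ifnar2, Tyk2 and Ifnb1 turned under some alternatives.

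Genes for enzymes of RNA 5′ ends and caps and for translation initiation factors were examined as fixed lists. Their levels do not show the RNA ends that IFIT proteins bind. None of the 10 tested genes for RNA 5′ ends and caps was called in edgeR, where 0.957% of all tested genes were. At an unadjusted p under 0.05, 2 were higher and 0 lower, a share near the 21.3% of all tested genes (10.5% higher, 10.8% lower). DESeq2 and limma-voom each called 2 higher, Xrn1 and Dcp2, and 0 lower, where they called 3.76% and 8.61% of all genes higher. Those with the highest level were Dusp11, which removes 5′ phosphates from RNA (log2 difference 0.018), the 5′ exonuclease Xrn1 (0.48, adjusted p = 0.0730), the decapping enzyme Dcp2 (0.57, adjusted p = 0.140) and the cap methyltransferase Rnmt (0.11). The sign for Dusp11 turned under RLE scaling, DESeq2 and 2 fits with 1 library left out. Of 24 translation initiation factors 0 were called in edgeR, where 0.957% of all tested genes were. At an unadjusted p under 0.05, 1 was higher and 6 were lower, where 10.5% and 10.8% of all tested genes were. DESeq2 called 1 higher and 1 lower (3.76% and 3.03% of all its genes), and limma-voom 1 and 4 (8.61% and 10.9%). Eif4e, the cap-binding factor with which Ifit1 competes, was at 54.1 ± 2.42 and 55.8 ± 3.39 CPM (log2 difference 0.045, SE 0.085, adjusted p = 0.769). Eif3c and Eif3e, subunits of the initiation factor that IFIT proteins bind, had log2 differences of −0.13 and 0.21 (adjusted p = 0.343 and 0.375). The 13 listed Eif3 subunits were set apart from the list after the values were seen, and 0 of them were called in edgeR. Among them, 10 had a log2 difference below 0, beside a median of 0.0098 over all tested genes. At an unadjusted p under 0.05, 5 were lower and 0 higher, where 10.8% of all tested genes were lower and 10.5% higher. These 5, named after their values were seen, were Eif3f (−0.41), Eif3k (−0.34), Eif3h (−0.32), Eif3g (−0.26) and Eif3l (−0.19), with adjusted p between 0.131 and 0.218. The reported IFIT partners Syncrip, an RNA-binding protein, and Sting1, an adaptor of DNA sensing, had log2 differences of 0.23 and −0.23 (adjusted p = 0.274 and 0.406), and 0 of these 2 were below an unadjusted p of 0.05 or called by the other tools.

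The OAS genes, another interferon-induced family that senses double-stranded RNA, are given beside the IFIT genes because they stand close in function. Of 12 listed genes 8 had a row and 7 were tested, of which 6 rose: Oasl1 (log2 fold change 3.46), Oasl2 (3.15), Oas1a (2.85), Oas1g (2.68), Oas2 (2.19) and Oas1c (1.50). In the same fit 0.883% of all tested genes were called higher. The 4 called IFIT genes had log2 fold changes of 3.78 to 4.37. Leaving out saline replicate 3 or poly(I:C) replicate 3 ended the call of Oas1c, Oas1g, Oas2 and Oasl2, with adjusted p between 0.0735 and 0.203. Leaving out saline replicate 2 or poly(I:C) replicate 1 also ended that of Oas1c (0.148 and 0.0910) and Oas1g (0.0611 and 0.0539), and leaving out poly(I:C) replicate 2 that of Oas1c (0.0676). The difference between the families was not tested.

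**Figure D5:**
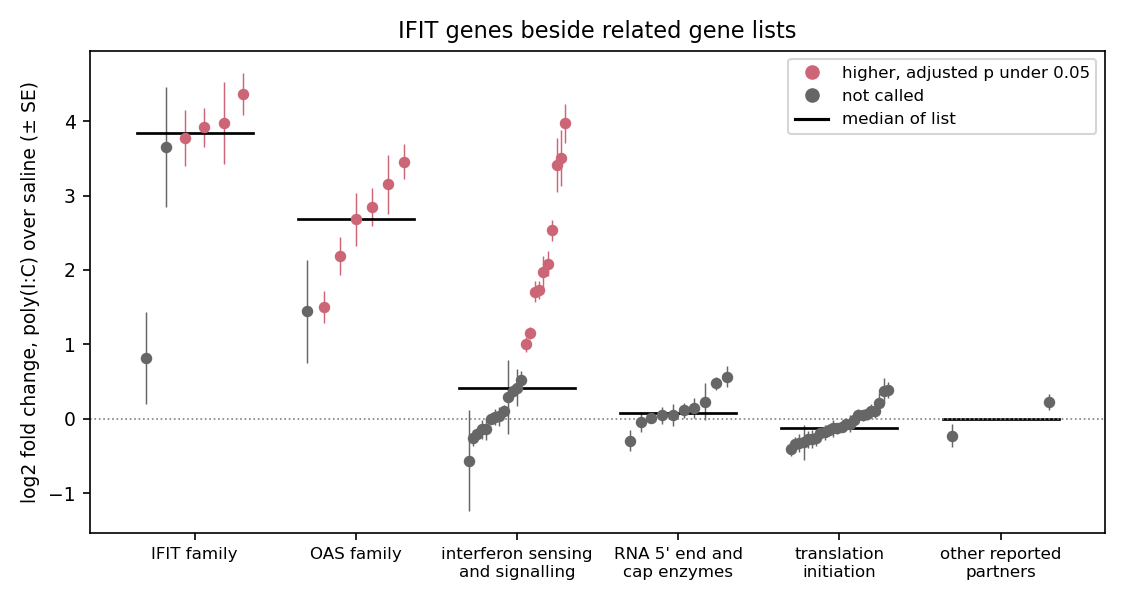
Log2 fold change (poly(I:C) over saline, ± SE) of each tested gene of the IFIT family, the OAS family and the fixed lists; red points have an adjusted p under 0.05 and bars are list medians. The IFIT median is 3.85 and the medians of the cap, initiation and partner lists lie between −0.12 and 0.082.

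None of 3 genes beside the IFIT cluster was called in edgeR, where 0.957% of all tested genes were, so that this count says little. Limma-voom called Lipa higher (adjusted p = 0.0334), as it did 8.61% of all genes. Lipa, which encodes lysosomal acid lipase and is the nearest protein-coding gene before the cluster in RefSeq, was at 144 ± 7.61 CPM with saline and 172 ± 11.9 CPM with poly(I:C). Its log2 difference was 0.26 (SE 0.085, edgeR unadjusted p = 0.0197, adjusted p = 0.185). Each poly(I:C) library was above each saline library, as for 14.0% of all tested genes. Slc16a12, a transporter gene and the next gene after the cluster, had 1.06, 3.32 and 2.27 CPM with saline and 8.01, 2.81 and 3.74 CPM with poly(I:C), and the groups overlapped (log2 difference 1.13, SE 0.55, adjusted p = 0.273). Its highest value was in poly(I:C) replicate 1, the library with the high choroid plexus sum, and the part of those cells in it was not tested. Gm31417, a predicted noncoding gene next to Ifit2 and before the cluster, had 3 to 24 counts per library and a log2 difference of 0.78 (adjusted p = 0.523).

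Genes were ranked by Pearson's r of their log2 CPM over the 6 libraries with that of the summed family. The 10386 candidates were tested genes outside the family averaging 5 CPM or more. Predicted or clone names (Gm followed by digits, or ending in Rik) were left out. The 5 highest were Pdia6, a chaperone of the endoplasmic reticulum (r = 0.998), Isg15 (0.998), the Schlafen gene Slfn5 (0.998), Phf11b (0.998) and the zinc finger gene Zfp719 (0.996). The 6 libraries share the treatment difference and the high replicate 1 of each group, and r takes no account of size. Slfn5 rose 10.6-fold and Phf11b 6.28-fold, whereas Pdia6 rose 1.59-fold (adjusted p = 0.0331) and Zfp719 had a 1.40-fold difference (adjusted p = 0.0991). The call of Pdia6 held without saline replicate 1 and was lost without any other single library (adjusted p between 0.0599 and 0.216). Among the members, r over the same 6 libraries was 0.998 between Ifit3 and Ifit3b and 0.994 between Ifit1 and Ifit2. It was between 0.580 and 0.761 for Ifit1bl2 with each of the others.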

How the data were processed

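Libraries came from total RNA of CD11b-enriched cells, by SMARTer amplification of cDNA and Nextera XT, per the labels' protocols. No molecular identifiers are named there, and the counts are taken as reads. The authors deposited raw counts per gene symbol, 1 column per library. The submitters' processing notes name fastp, HISAT2, HTSeq and build GRCm39; their settings, strand mode and gene annotation were not stated. Without strand, reads of overlapping genes on opposite strands cannot be told apart.

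Differences were tested with edgeR 4.0.16 (R 4.3.3): filterByExpr within groups (14727 of 23491 genes), TMM, glmQLFit and glmQLFTest on all 6 libraries, no covariate, Benjamini-Hochberg over all tested genes. All 6 IFIT genes passed the filter. SE was derived from the fold change and F (absolute log2 value over root F). Ratios used log2 of counts plus 0.5. Alternatives were RLE and total-count scaling, no filter, 5 CPM in 3 libraries, DESeq2 1.42.0, limma-voom (limma 3.58.1) with quality weights, a replicate block and leaving out libraries. The members and lists were chosen with earlier results of these data known. Named genes were the IFIT genes, called list members, up to 4 others a list with the highest CPM, Eif4e, Eif3c, Eif3e, the 5 genes most like the family and the cluster's neighbours. Lipa and Ifnb1 were added later. 1 called list member is not reported here by name. No library pair within a group looked like a duplicate (chi-square per gene 21.2 to 113). Only the edgeR fit was tested on simulated data.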

Additional observations from a re-analysis of the deposited data

How the results depend on the processing

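All 6 IFIT genes kept their direction under every alternative that could be fitted; under the filter of 5 CPM in 3 libraries Ifit1bl1 and Ifit1bl2 were not tested. With 1 library left out, 3 or 4 members were called higher and 0 lower, and the log2 fold change of Ifit2 lay between 3.47 and 4.54. Ifit1bl1 was called in DESeq2 (log2 fold change 3.65) and limma-voom (4.14). Over all genes, 130 higher and 11 lower became 557 and 448 in DESeq2, 1268 and 1608 in limma-voom, and 355 and 214 without both replicates 1. There were 18 lower genes without a filter, and with 1 library left out 51 to 167 higher and 0 to 20 lower. The lowest counts of higher genes, 66, 53 and 51, came without saline replicate 2, saline replicate 3 and poly(I:C) replicate 3. Of the 59 tested genes of the pathway list 10 were called higher, where 0.883% of all tested genes were. With 1 library left out 6 to 10 were called higher (6 without poly(I:C) replicate 3). In the main fit 0 were called lower, against 1 in DESeq2 and 5 in limma-voom, where 3.03% and 10.9% of all genes were. The ratio to Ifit3 changed sign with single libraries left out for Ifit2 (−0.22 to 0.27) and Ifit1bl1 (−0.63 to 0.72). Log2 differences near 0 turned with 1 library left out for Ifnar2 (−0.048 to 0.17), Tyk2 (−0.076 to 0.13), Dusp11 (−0.022 to 0.059) and Ifnb1 (−0.10 to 0.53). They turned for Tyk2 in DESeq2 (−0.00076), for Dusp11 under RLE scaling (−0.0034) and in DESeq2 (−0.0100), and for Gm31417 without both replicates 1 (−0.047). The share of promoters with the motif was 2.98% in the 250 upstream bases and 8.61% with 1 to 3 bases between the blocks. The 250 bases lie within the main window and the wider spacing includes the main motif. By definition, the share could not rise with the former or fall with the latter. The cause of the other shifts was not tested. The labels do not state whether same-numbered libraries were paired. Their deviations correlated across genes at 0.17, −0.063 and 0.27, and saline replicate 3 correlated best with poly(I:C) replicate 2 (0.38). With so few libraries these values cannot settle whether there was a pairing. With a replicate block 171 genes were called higher and 89 lower, and 4 IFIT genes were called higher. The SE with the block was 0.15 for Ifit2 and 0.11 for Ifit3 (0.55 and 0.26 without it), but 0.98 for Ifit1bl1 (0.81 without it). Of the named genes, the block ended the call of Oas1c (adjusted p = 0.0587).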
